A study of Mus musculus with 3 samples.

Results

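A pair of gene deletions was set directly against each other in CD4+ T cells that recognize an immunizing peptide, 1 removing the alpha chain of the IL-6 receptor and 1 removing the adaptor MyD88. The genes compared were those with an expression level of at least 5 FPKM (a fragment count divided by transcript length and by library depth) in at least 1 of the 2 knockout libraries. There were 8052 such genes of the 23283 entries that both tables hold, or 34.6%, and genes of a list that meet this minimum are called measured. For each, the ratio was log2((IL6ra T-KO + 1)/(MyD88 T-KO + 1)) in FPKM, so a positive value means a higher level in the IL6ra T-KO library, which is called the library labelled IL6ra throughout because Il6ra RNA was not lower in it. The choice of genes used their levels and not the direction of the difference.

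The cells were CD4+ T cells of C57BL/6 mice that bound the tetramer 2W:I-A(b), sorted on day 7 after the footpads were immunized with the peptide 2W1S, LPS and the oil adjuvant IFA. They came from the inguinal and popliteal lymph nodes. The groups were IL6ra T-KO (genotype given as Il-6 receptor a chain -/-), MyD88 T-KO (genotype given as Myd88 -/-) and WT, with the deletions described as specific to T cells. Neither the Cre driver nor the age of the mice is given in the sources used here. Each group is 1 library made from cells pooled over 4 experiments and 15 to 30 mice per genotype. Nothing here measures the variation between mice, and no difference in what follows has a replicate check or a test. The WT library stands in both tables. It set the scale factor between them, and its level is given beside single genes for orientation.

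IL-6 binds its receptor alpha chain together with gp130 (encoded by Il6st) and acts mainly through the transcription factor STAT3, which induces the feedback inhibitor Socs3 and, in CD4+ T cells, favours the Th17 program. MyD88 is the adaptor through which the receptors for IL-1, IL-18 and IL-33 and most Toll-like receptors activate IRAK kinases, TRAF6 and NF-kB. IL-1 and IL-6 are both known to support Th17 cells, while IL-18 is known to support interferon gamma production by Th1 cells.

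Depth was estimated at 24.1 M fragments for the library labelled IL6ra, 20.9 M for the MyD88 T-KO library and 21.9 M for WT. From this depth each ratio was given a 95% counting interval, printed in square brackets, which covers counting error only. T cell identity genes were high in all libraries. Cd3e was at 637 FPKM in the library labelled IL6ra, 749 FPKM in MyD88 T-KO and 711 FPKM in WT. None of the 14 measured T lineage genes differed by 2-fold between the knockouts. The summed level of 22 B cell markers was 1023 FPKM in the library labelled IL6ra, 1275 FPKM in MyD88 T-KO and 779 FPKM in WT. The plasma cell marker Igj (the joining chain of IgM and IgA) was at 41.2 FPKM in the library labelled IL6ra, 15.7 FPKM in MyD88 T-KO and 7.96 FPKM in WT, and the ratio between the knockouts was 1.34. The 4 measured plasma cell markers were divided, 2 above 0 and 2 below it. Prdm1 had 0.93, Irf4 -0.14 and Slpi -0.50. Prdm1 and Irf4 also belong to lists of T cell genes used here, so they are not particular to plasma cells. The neutrophil markers summed to 23.6 FPKM in the library labelled IL6ra, 43.3 FPKM in MyD88 T-KO and 40.8 FPKM in WT. The Y-linked genes Ddx3y and Eif2s3y had ratios of 1.47 and 1.73 and the X-inactivation RNA Xist 0.03. The levels of the Y-linked genes therefore differed between the pools. The part of these other cells and of the sex of the mice in the results was not tested. In bulk libraries fewer cells of a type and less RNA per cell cannot be told apart.

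**Figure D1:**
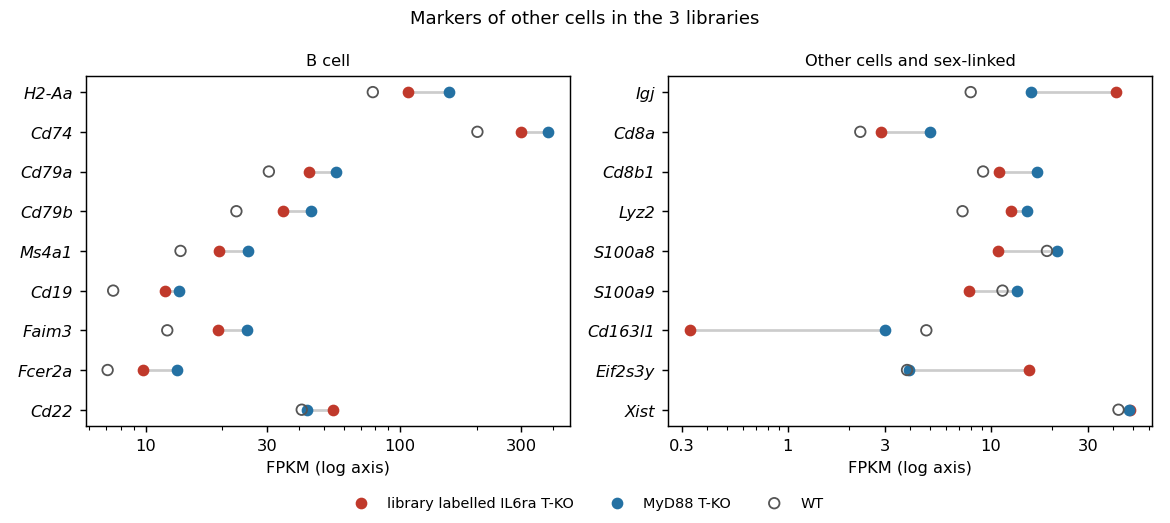
FPKM on a log axis of B cell markers (left panel) and of markers of other cells and sex-linked genes (right panel). Each point is 1 library (red, labelled IL6ra T-KO; blue, MyD88 T-KO; open, WT). All but 1 of the 9 B cell markers shown are lower in red than in blue, while Igj and Eif2s3y are higher in red.

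Most genes had like levels in the knockouts. Of the 8052 genes, 7630 (94.8%) lay within 1.5-fold of equal, and the middle of the distribution was narrow, with a median log2 ratio of -0.07 and quartiles of -0.19 and 0.07. The level was at least 2-fold higher in the library labelled IL6ra for 80 genes (0.994%) and at least 2-fold lower for 57 genes (0.708%), or 137 genes (1.7%) in all. At these shares most lists of the size used here would hold no gene past 2-fold, so a list with none does not stand apart. The higher genes comprise 67 named genes, 7 small RNAs, 4 predicted genes and 2 entries with several symbols, and the lower genes 47 named genes, 8 small RNAs and 2 predicted genes. The small RNA loci are very short, so dividing by their length makes their FPKM unreliable, and they are not described further. Without the threshold, 2906 genes (36.1%) lay above 0 and 5146 (63.9%) below it. Counting error was small beside most of these differences. Of the 133 genes past 2-fold whose transcript length was known, all 133 had an interval that left out 0, and 49 higher and 35 lower genes had an interval wholly past 2-fold. Each of these counts includes small RNAs. Their intervals were computed from the same unreliable FPKM and short lengths, so they do not measure the counting error of those loci.

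The 2 directions differed in level. Among genes averaging 5 to 10 FPKM over the knockouts, 31 of 1951 were higher and 7 lower, while at 100 FPKM and above 3 of 535 were higher and 8 lower. The median ratio was lower at high levels too, at -0.18 from 100 FPKM upward. Of the 80 higher genes, 47 reached 5 FPKM only in the library labelled IL6ra, and of the 57 lower genes, 23 reached it only in MyD88 T-KO. At the 2-fold threshold, Il1rl1 (1.0003) stood just inside and Penk (0.997) just outside on the higher side, and Tigit was just inside at -1.005 and Slc45a4 just outside at -0.99 on the lower side. At the expression threshold, Eomes was just inside with 5.003 FPKM in the library labelled IL6ra and 2.67 FPKM in MyD88 T-KO.

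**Figure D2:**
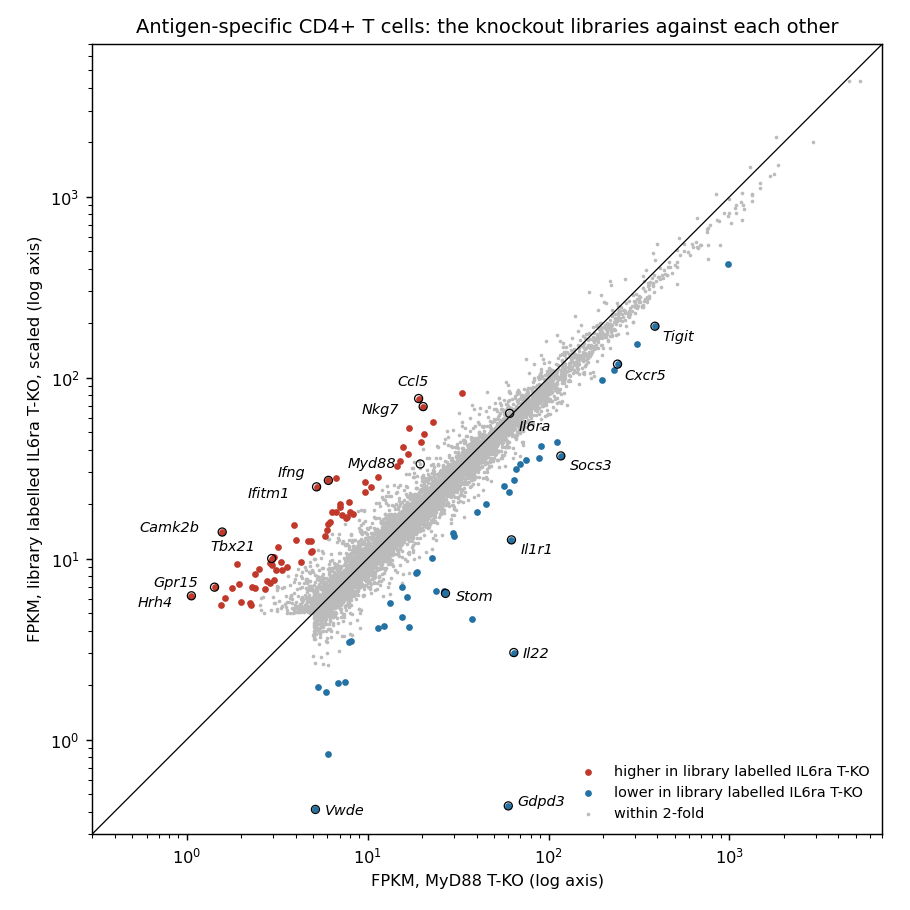
FPKM of 7489 genes in the library labelled IL6ra (vertical, log axis) against MyD88 T-KO (horizontal, log axis); the line marks equal levels. Red points are at least 2-fold higher and blue points at least 2-fold lower in the library labelled IL6ra on the log2(FPKM + 1) scale, and small RNAs, predicted genes, entries with several symbols and the 2 named genes under 0.3 FPKM in a library (globin genes) are not drawn, which leaves 67 red and 45 blue points. Gdpd3 and Il22 lie farthest below the line and Camk2b, Ifng and Ifitm1 far above it.

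The deleted genes were examined first. Myd88 (chromosome 9, 119335988 to 119340040, mm10) was at 33.4 FPKM in the library labelled IL6ra, 19.5 FPKM in MyD88 T-KO and 49.8 FPKM in WT, so the library labelled MyD88 T-KO was the lowest, as its label states. The ratio between the knockouts was 0.74 [0.62 to 0.86]. Il6ra (chromosome 3, 89869324 to 89913162) was at 63.5 FPKM in the library labelled IL6ra, 60.9 FPKM in MyD88 T-KO and 55.8 FPKM in WT. The library labelled IL6ra T-KO was thus not the lowest for Il6ra, with a ratio of 0.06 [0.02 to 0.10]. A level summed over the whole gene does not show which exons were read, so neither value checks the deletion of a single exon. The genes near the targets were counted too. Within 10 Mb of Myd88, 1 of 62 genes was higher (Cxcr6) and 1 lower (Lars2, the mitochondrial leucyl-tRNA synthetase), or 3.23% against 1.7% of all genes, a share that rests on these 2 genes. Within 10 Mb of Il6ra none of 139 was past 2-fold, where the share of all genes would give 2.4.

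Feedback inhibitors and other genes known to be induced by STAT3 were among the lower genes in the library labelled IL6ra. Socs3 (chromosome 11, 117966087 to 117969366), an inhibitor of gp130 signalling, was at 37.0 FPKM in the library labelled IL6ra, 117 FPKM in MyD88 T-KO and 165 FPKM in WT, a ratio of -1.64 [-1.70 to -1.57]. Socs1, which inhibits JAK kinases, was at 35.8 FPKM in the library labelled IL6ra, 88.6 FPKM in MyD88 T-KO and 109 FPKM in WT, a ratio of -1.28 [-1.35 to -1.22]. Il21, a cytokine that acts through STAT3 on T and B cells, was at 42.0 FPKM in the library labelled IL6ra, 91.4 FPKM in MyD88 T-KO and 89.3 FPKM in WT, a ratio of -1.10 [-1.18 to -1.02]. For Socs3 and Socs1 the library labelled IL6ra was the lowest, MyD88 T-KO lay between and WT was the highest, while for Il21 MyD88 T-KO stood close to WT.

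Smaller differences in the same direction were seen for Bcl3 (an atypical IkB protein) at -0.82, Il21r (the IL-21 receptor) at -0.56 and Batf (an AP-1 partner needed for Th17 cells) at -0.53. The signalling chain itself differed little, with Stat3 at -0.17, Jak1 at -0.24 and Il6st at -0.20. Pim1, a kinase also induced by STAT3, was at 141 FPKM in the library labelled IL6ra, 147 FPKM in MyD88 T-KO and 196 FPKM in WT, a ratio of -0.06. Members of the list also lay on the other side. Fgl2, an immunosuppressive fibrinogen-like protein, was at 8.73 FPKM in the library labelled IL6ra, 2.51 FPKM in MyD88 T-KO and 2.74 FPKM in WT, a ratio of 1.47 [1.30 to 1.64]. The ratio was 1.11 for Il10, an anti-inflammatory cytokine, and 0.93 for Prdm1, which encodes the repressor Blimp-1. Of the 19 measured genes of the IL-6 receptor and STAT3 list, 14 lay below 0 and 5 above it, 3 were past 2-fold lower and 2 past 2-fold higher, and the median was -0.24 against -0.07 over all genes. Over all genes 63.9% lay below 0, 0.708% were past 2-fold lower and 0.994% past 2-fold higher. Of the 2 higher genes, Fgl2 was measured only through its level in the library labelled IL6ra.

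The promoter of Socs3 is shown because Socs3 had the lowest ratio in the IL-6 receptor and STAT3 list. The 250 bases before its start (RefSeq, GRCm38.p6, chr11:117969367-117969616, minus strand) hold 1 match, in capitals, to the GAS motif TTCNNNGAA, the element that STAT dimers bind. It begins 154 bases before the start.
Socs3: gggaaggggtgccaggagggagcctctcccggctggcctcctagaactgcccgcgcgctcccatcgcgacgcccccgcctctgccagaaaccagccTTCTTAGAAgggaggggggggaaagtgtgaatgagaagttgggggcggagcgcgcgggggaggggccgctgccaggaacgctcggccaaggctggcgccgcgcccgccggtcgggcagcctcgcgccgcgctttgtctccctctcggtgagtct

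A GAS match was found, on either strand (the motif is its own reverse complement), in 8.30% of all 32851 promoter windows of 300 bases in the RefSeq table. It was in 2 of the 18 genes of the IL-6 receptor and STAT3 list that had a window, namely Socs3 and Fgl2, which lay on opposite sides of the contrast.

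Il22 and Il1r1, 2 genes of the Th17 program, were much lower in the library labelled IL6ra. Il22 (chromosome 10, 118204964 to 118210046), a cytokine that acts on epithelial cells, was at 3.03 FPKM in the library labelled IL6ra, 64.3 FPKM in MyD88 T-KO and 169 FPKM in WT, a ratio of -4.02 [-4.27 to -3.77]. Its near-identical neighbour Iltifb was at 0.832 FPKM in the library labelled IL6ra, 6.00 FPKM in MyD88 T-KO and 15.6 FPKM in WT, a ratio of -1.93, and fragments may have been divided between these copies. Il1r1 (chromosome 1, 40225080 to 40316177), the signalling receptor for IL-1, was at 12.7 FPKM in the library labelled IL6ra, 62.4 FPKM in MyD88 T-KO and 69.1 FPKM in WT, a ratio of -2.21 [-2.28 to -2.14]. Il1r1 in MyD88 T-KO was thus close to its WT level, whereas Il22 lay between.

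The IL-17 cytokines were near the lower limit in both knockouts and did not reach 5 FPKM in either. Il17a was at 1.20 FPKM in the library labelled IL6ra, 1.73 FPKM in MyD88 T-KO and 7.60 FPKM in WT, and the counting interval of the ratio between the knockouts, -0.70 to 0.10, held 0. Il17f was at 0.104 FPKM in the library labelled IL6ra, 0.805 FPKM in MyD88 T-KO and 6.67 FPKM in WT, a ratio of -0.71 [-0.90 to -0.35], and its level in the library labelled IL6ra rests on about 3 fragments. Apart from Il1r1, the transcription factors and receptors of the program described here differed less than 2-fold, in both directions. The ratios of Maf (a transcription factor), Ccr6 (the receptor for CCL20) and Il23r (the IL-23 receptor, under 5 FPKM in both knockouts) were at -0.54, -0.44 and -0.74. Rora, which encodes a nuclear receptor, was at 0.47 and Ahr, the aryl hydrocarbon receptor, at 0.77. Of the 8 measured genes, 6 lay below 0, against 63.9% of all genes, and 3 were past 2-fold lower and none higher, against 0.708% and 0.994% of all genes. The median was -0.49. Of the 3 lower genes, Il22 and Iltifb were measured only through MyD88 T-KO, and the other 8 genes of the list were under 5 FPKM in both knockouts. Markers of gamma delta T cells, which can also make IL-17 and IL-22, were low. Cd163l1 was at 0.330 FPKM in the library labelled IL6ra, 3.02 FPKM in MyD88 T-KO and 4.81 FPKM in WT, Sox13 was at 0.00934 FPKM in the library labelled IL6ra, 0.0113 FPKM in MyD88 T-KO and 0.011 FPKM in WT, and the 6 markers found in the tables summed to 9.69 FPKM in the library labelled IL6ra, 16.9 FPKM in MyD88 T-KO and 21.0 FPKM in WT. Their part in the Il22 and Il1r1 results was not tested.

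Receptors of the IL-1 family lay on both sides of the contrast although their genes stand next to each other. On chromosome 1, Il1r1 was lower, while Il1rl1 (the IL-33 receptor, 123471 bases on) and Il18rap (a chain of the IL-18 receptor, another 49947 bases on) were higher. Il18rap was at 9.48 FPKM in the library labelled IL6ra, 2.89 FPKM in MyD88 T-KO and 4.88 FPKM in WT, a ratio of 1.43 [1.28 to 1.58]. Il1rl1 was at 5.55 FPKM in the library labelled IL6ra, 2.27 FPKM in MyD88 T-KO and 2.09 FPKM in WT, and the other IL-18 receptor chain, Il18r1, at 25.6 FPKM in the library labelled IL6ra, 15.1 FPKM in MyD88 T-KO and 23.1 FPKM in WT, a ratio of 0.72. MyD88 T-KO was the lowest library for both IL-18 receptor chains. The decoy receptor Il1r2 had a ratio of 0.32 and the inhibitory receptor Sigirr -0.46. The kinases and adaptors downstream of MyD88 differed little, with Irak4 at -0.36, Traf6 at -0.12 and Irak2 at 0.03. The 18 measured genes of this list had a median of -0.01, with 2 past 2-fold higher and 1 lower, against 0.994% and 0.708% of all genes. Both higher genes reached 5 FPKM only in the library labelled IL6ra.

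**Figure D3:**
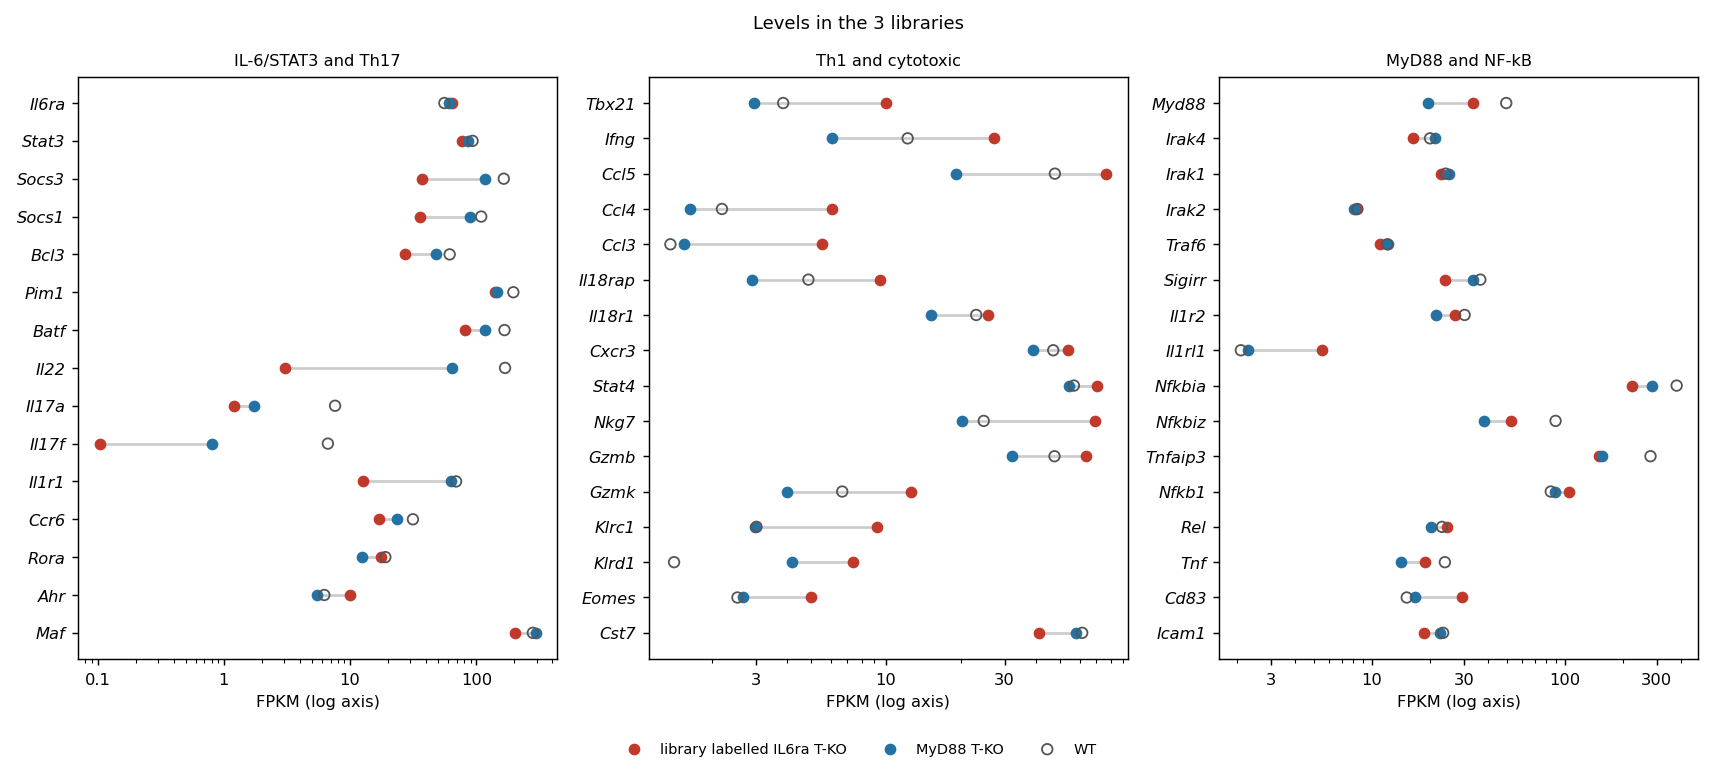
FPKM on a log axis of genes of the IL-6/STAT3 and Th17 programs, the Th1 and cytotoxic programs and the MyD88 and NF-kB pathway, in the library labelled IL6ra (red), MyD88 T-KO (blue) and WT (open). Socs3, Il22 and Il1r1 are lowest in red, all genes of the middle panel except Cst7 are higher in red than in blue, and most NF-kB genes have red and blue points close together.

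All measured genes of the Th1 program had higher levels in the library labelled IL6ra. Tbx21 (chromosome 11, 97098007 to 97115331), which encodes the defining factor T-bet, was at 10.01 FPKM in the library labelled IL6ra, 2.95 FPKM in MyD88 T-KO and 3.87 FPKM in WT, a ratio of 1.48 [1.28 to 1.68]. Ifng (chromosome 10, 118441047 to 118445892), which encodes interferon gamma, was at 27.1 FPKM in the library labelled IL6ra, 6.07 FPKM in MyD88 T-KO and 12.2 FPKM in WT, a ratio of 1.99 [1.77 to 2.21]. The chemokine gene Ccl5 was at 76.8 FPKM in the library labelled IL6ra, 19.1 FPKM in MyD88 T-KO and 47.8 FPKM in WT, a ratio of 1.95 [1.74 to 2.16]. For all 3 genes the library labelled IL6ra was above WT and MyD88 T-KO below it. Ccl4 and Ccl3, chemokine genes beside Ccl5, were higher too, at 1.42 and 1.36. Cxcr3, a receptor that guides Th1 cells, was at 53.8 FPKM in the library labelled IL6ra, 39.1 FPKM in MyD88 T-KO and 47.0 FPKM in WT, a ratio of 0.45, and Stat4, the factor activated by IL-12, had 0.36. All 12 measured Th1 genes lay above 0 with counting intervals that left out 0, against 36.1% of all genes above 0. Of these, 6 were past 2-fold higher, against 0.994% of all genes, and the list median was 1.04. Tbx21, Il18rap, Ccl3 and Ccl4, 4 of those 6, reached 5 FPKM only in the library labelled IL6ra and could enter only by being higher there, and 3 genes of the list were under 5 FPKM in both knockouts.

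The promoter of Ifng is shown because Ifng stands beside Il22 and Iltifb on chromosome 10, 146008 bases from Iltifb, and lay on the opposite side of the contrast. Its 250 bases before the start (RefSeq, GRCm38.p6, chr10:118440796-118441045, plus strand) hold 1 GAS match, in capitals, that begins 249 bases before the start.
Ifng: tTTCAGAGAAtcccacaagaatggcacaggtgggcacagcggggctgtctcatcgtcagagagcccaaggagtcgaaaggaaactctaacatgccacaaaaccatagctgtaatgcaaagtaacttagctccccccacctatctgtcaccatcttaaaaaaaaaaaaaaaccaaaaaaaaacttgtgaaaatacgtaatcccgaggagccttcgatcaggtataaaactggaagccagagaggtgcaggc

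Granule genes and receptors of cytotoxic lymphocytes were higher as well. Nkg7, a granule membrane protein, was at 69.3 FPKM in the library labelled IL6ra, 20.3 FPKM in MyD88 T-KO and 24.7 FPKM in WT, a ratio of 1.72 [1.57 to 1.88]. Gzmb, which encodes granzyme B, was at 63.5 FPKM in the library labelled IL6ra, 32.2 FPKM in MyD88 T-KO and 47.6 FPKM in WT, a ratio of 0.96, just short of 2-fold. Gzmk, another granzyme gene, was at 12.6 FPKM in the library labelled IL6ra, 3.99 FPKM in MyD88 T-KO and 6.68 FPKM in WT, a ratio of 1.45. The inhibitory NK receptor gene Klrc1 had 1.37 and its partner Klrd1 0.69. Eomes, a T-box factor related to T-bet, had 0.71 and Ctsw, a lymphocyte cathepsin, 0.84. The exceptions were Cst7, a cystatin of cytotoxic cells, at -0.48 and S100a4, a calcium-binding protein, at -0.23. Of the 16 measured genes 14 lay above 0, against 36.1% of all genes, 4 were past 2-fold higher, against 0.994%, and none lower, and the median was 0.84. Of these 16 genes, 5 reached 5 FPKM only in the library labelled IL6ra, 2 of the 4 past 2-fold among them, and the other 8 genes of the list were not measured. Markers of CD8 T cells were present and highest in MyD88 T-KO. Cd8a was at 2.89 FPKM in the library labelled IL6ra, 5.02 FPKM in MyD88 T-KO and 2.28 FPKM in WT. Cd8b1 was at 10.9 FPKM in the library labelled IL6ra, 16.9 FPKM in MyD88 T-KO and 9.16 FPKM in WT, a ratio of -0.59. The NK receptor gene Ncr1 was low, at 0.0888 FPKM in the library labelled IL6ra, 0.233 FPKM in MyD88 T-KO and 0.157 FPKM in WT. Of the 10 NK and innate lymphoid markers, 3 were at 0 in the library labelled IL6ra and 2 in MyD88 T-KO. Their summed level was 98.9 FPKM in the library labelled IL6ra, higher than the 65.8 FPKM in MyD88 T-KO and lower than the 108 FPKM in WT. Most of it was Id2, a transcriptional regulator that effector T cells express as well, at 83.0 FPKM in the library labelled IL6ra, 45.5 FPKM in MyD88 T-KO and 76.7 FPKM in WT, a ratio of 0.85. The part of these cells in the cytotoxic values was not tested.

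As a group, interferon-induced genes lay above 0 in the contrast. Ifitm1 (chromosome 7, 140967429 to 140969827), of a family that blocks the entry of viruses, was at 24.9 FPKM in the library labelled IL6ra, 5.22 FPKM in MyD88 T-KO and 3.99 FPKM in WT, a ratio of 2.06 [1.76 to 2.36]. Ifitm2 was at 27.8 FPKM in the library labelled IL6ra, 6.69 FPKM in MyD88 T-KO and 6.52 FPKM in WT, a ratio of 1.91, and Ifitm3 at 23.4 FPKM in the library labelled IL6ra, 9.66 FPKM in MyD88 T-KO and 8.26 FPKM in WT, a ratio of 1.20. The Ifitm genes resemble each other, so fragments may have been divided among them. For these genes MyD88 T-KO stood close to WT and the library labelled IL6ra apart from both. The guanylate-binding proteins, GTPases that act on intracellular pathogens, likewise had the library labelled IL6ra apart from the others. Gbp3 was at 18.1 FPKM in the library labelled IL6ra, 6.69 FPKM in MyD88 T-KO and 7.74 FPKM in WT, a ratio of 1.31, Gbp6 had 1.38 and Gbp7 1.25, with the same limit on near-identical copies. Other induced genes differed less. Ifit3 had a ratio of 0.96, Irgm1 (an immunity-related GTPase) 0.75, Irf1 0.27, Isg15 (a ubiquitin-like modifier) 0.27 and Ifit2 0.04. All 32 measured genes lay above 0, against 36.1% of all genes, 29 of them with a counting interval above 0, and the median was 0.50 against -0.07 over all genes. Of the 32, 2 reached 5 FPKM only in the library labelled IL6ra and could enter only by being higher there. Past 2-fold higher were 6, namely the 3 Ifitm and 3 Gbp genes, against 0.994% of all genes.

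The promoters of Gbp3 and Ifitm2 are shown because they carry the element of interferon-induced genes, ISRE, searched on both strands as TTTC and TTTC separated by 2 bases of any kind. In the 250 bases before the start (RefSeq, GRCm38.p6), Gbp3 (chr3:142559794-142560043, plus strand) holds 2 matches that overlap, beginning 45 and 39 bases before the start. Ifitm2 (chr7:140955962-140956211, minus strand) holds 1 match on the opposite strand, beginning 46 bases before the start. Capitals mark the matches.
Gbp3: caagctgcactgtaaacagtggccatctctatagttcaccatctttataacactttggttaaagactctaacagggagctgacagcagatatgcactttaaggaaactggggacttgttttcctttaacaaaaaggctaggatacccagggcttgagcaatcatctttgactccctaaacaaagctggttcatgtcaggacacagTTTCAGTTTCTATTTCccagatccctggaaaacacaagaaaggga
Ifitm2: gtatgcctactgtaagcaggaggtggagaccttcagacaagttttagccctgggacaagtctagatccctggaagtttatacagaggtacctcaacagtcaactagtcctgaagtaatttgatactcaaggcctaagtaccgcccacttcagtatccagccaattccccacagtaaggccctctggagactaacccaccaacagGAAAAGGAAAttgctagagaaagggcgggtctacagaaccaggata

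The ISRE was found in the windows of 15 of the 25 interferon-induced genes that had one (60%), against 3.44% of all windows in the table. The window of Ifitm1, which had the highest ratio of the list, held no ISRE match, while that of Ifitm3 held 2. Among genes past 2-fold, it was in 9 of 50 higher genes with a window (18.0%) and in 1 of 36 lower genes (2.78%), against 3.52% of the 6483 measured genes with a window. GAS was in 8 of the 50 higher genes (16.0%) and 1 of the 36 lower genes (2.78%), against 6.76% of the measured genes with a window. The kB element that NF-kB binds, searched on both strands as GGGA and TTTCC separated by 1 base of any kind, was in none of the 50 and none of the 36 windows and in 0.411% of all windows. Several interferon-induced genes are themselves among the higher genes, so these shares overlap. A match is a description of the sequence and identifies no factor.

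**Figure D4:**
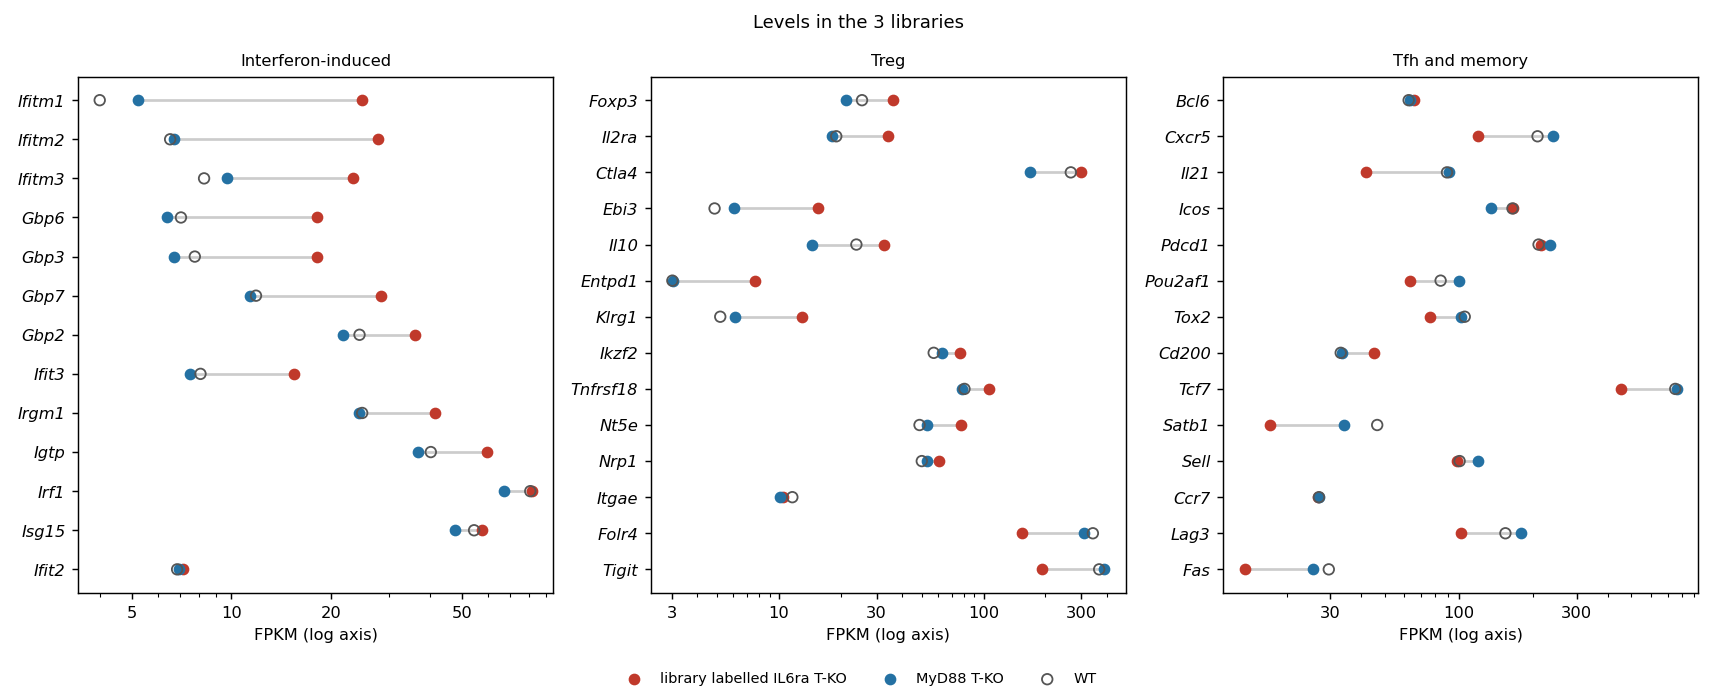
FPKM on a log axis of interferon-induced, regulatory T cell, and follicular helper and memory genes in the library labelled IL6ra (red), MyD88 T-KO (blue) and WT (open). Red is highest for each interferon-induced gene shown, blue lies near WT for most of them, and Folr4, Tigit, Cxcr5, Il21 and Tcf7 are lowest in red.

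Genes of regulatory T cells (Treg) were mostly higher in the library labelled IL6ra. Foxp3, which encodes their defining factor, was at 35.96 FPKM in the library labelled IL6ra, 21.3 FPKM in MyD88 T-KO and 25.5 FPKM in WT, a ratio of 0.73 [0.64 to 0.81]. Ebi3, a chain of IL-35 and IL-27, was at 15.5 FPKM in the library labelled IL6ra, 6.06 FPKM in MyD88 T-KO and 4.85 FPKM in WT, a ratio of 1.23 [0.98 to 1.47]. Il10 was at 32.6 FPKM in the library labelled IL6ra, 14.6 FPKM in MyD88 T-KO and 23.9 FPKM in WT, a ratio of 1.11 [0.95 to 1.27]. Entpd1 (CD39, an ectonucleotidase) had 1.10, Il2ra (the IL-2 receptor alpha chain) 0.89 and Ctla4 (an inhibitory receptor) 0.82, while Ikzf2, which encodes the factor Helios, had 0.28. A pair of receptor genes of the list ran the other way. Folr4, the folate receptor family member FR4, was at 153 FPKM in the library labelled IL6ra, 310 FPKM in MyD88 T-KO and 341 FPKM in WT, a ratio of -1.01. Tigit, an inhibitory receptor, was at 193 FPKM in the library labelled IL6ra, 388 FPKM in MyD88 T-KO and 366 FPKM in WT, a ratio of -1.005. Of the 17 measured genes 15 lay above 0, against 36.1% of all genes. Past 2-fold, 3 were higher and 2 lower, against 0.994% and 0.708% of all genes, and the median was 0.53 against -0.07. Of the 3 higher genes, 1 reached 5 FPKM only in the library labelled IL6ra.

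Follicular helper T cells (Tfh) give help to B cells, and their genes were divided. Cxcr5, the receptor that guides them into follicles, was at 119 FPKM in the library labelled IL6ra, 241 FPKM in MyD88 T-KO and 208 FPKM in WT, a ratio of -1.01 [-1.05 to -0.97]. Il21 was lower as given above, and Pou2af1, a transcriptional coactivator, had -0.65. Bcl6, which encodes the defining factor, was at 65.4 FPKM in the library labelled IL6ra, 63.3 FPKM in MyD88 T-KO and 62.4 FPKM in WT, a ratio of 0.05, and Pdcd1 (PD-1) had -0.13, Icos 0.29 and Cd200 0.42. Of the 15 measured genes 10 lay below 0, near the 63.9% of all genes, and the median, -0.11, was near that of all genes. Past 2-fold, 2 were lower and none higher, against 0.708% and 0.994% of all genes. B cell markers were lower in the library labelled IL6ra as well, with 18 of 19 measured markers below 0, against 63.9% of all genes, and a median of -0.35, but none past 2-fold. Their part in the Tfh values was not tested.

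Among genes of naive and central memory T cells, Tcf7, which encodes the factor TCF-1, was at 454 FPKM in the library labelled IL6ra, 764 FPKM in MyD88 T-KO and 752 FPKM in WT, a ratio of -0.75 [-0.77 to -0.72]. Satb1, a chromatin organizer, had -0.97 and Igfbp4, an insulin-like growth factor binding protein, -1.09. Il7r, the receptor for the survival cytokine IL-7, went the other way at 0.72, and the lymph node homing receptor Ccr7 was at -0.02. The 13 measured genes had a median of -0.25, with 1 past 2-fold lower and none higher, against 0.708% and 0.994% of all genes. Tissue homing receptors included 2 of the higher genes. Cxcr6 was at 48.6 FPKM in the library labelled IL6ra, 20.5 FPKM in MyD88 T-KO and 29.7 FPKM in WT, a ratio of 1.21. Gpr15, which guides T cells to the large intestine, was at 6.96 FPKM in the library labelled IL6ra, 1.42 FPKM in MyD88 T-KO and 1.81 FPKM in WT, a ratio of 1.71 [1.42 to 1.99]. Together with Cxcr5 on the lower side, they were the 3 of 18 homing genes past 2-fold, against 1.7% of all genes. Gpr15 reached 5 FPKM only in the library labelled IL6ra and could enter only by being higher there.

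Th2 genes were somewhat higher. Gata3, which encodes the defining factor, was at 62.9 FPKM in the library labelled IL6ra, 41.4 FPKM in MyD88 T-KO and 45.4 FPKM in WT, a ratio of 0.59, and Il4 had 0.43 and Ccr8 0.92. The list held 6 measured genes with a median of 0.51. Il1rl1, measured only through the library labelled IL6ra, was the 1 past 2-fold higher, against 0.994% of all genes. Coinhibitory receptors were divided evenly, 5 above and 5 below 0, from Tigit at -1.005 and Lag3 at -0.81 to Havcr2 (Tim-3) at 0.95. In the TNF family, Tnfrsf1b (TNF receptor 2) had 0.88 and the death receptor gene Fas -0.87, and none of 16 was past 2-fold. Among regulators of apoptosis, the pro-apoptotic genes Pmaip1 and Bcl2l11 had 0.89 and 0.86, and none of 17 was past 2-fold. Of 16 cytokine receptors, Il9r at 1.05 was the only gene past 2-fold, against 1.7% of all genes.

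NF-kB target genes, which lie downstream of MyD88, differed between the knockouts about as little as genes in general. Nfkbia, which encodes the inhibitor IkBa, was at 225 FPKM in the library labelled IL6ra, 283 FPKM in MyD88 T-KO and 382 FPKM in WT, a ratio of -0.33 [-0.37 to -0.29]. Tnfaip3, which encodes the inhibitor A20, was at 151 FPKM in the library labelled IL6ra, 156 FPKM in MyD88 T-KO and 279 FPKM in WT, a ratio of -0.05 [-0.08 to -0.02]. Nfkbiz, which encodes the nuclear protein IkBz, was at 52.9 FPKM in the library labelled IL6ra, 38.1 FPKM in MyD88 T-KO and 89.8 FPKM in WT, a ratio of 0.46 [0.40 to 0.53]. For each of these feedback genes both knockouts were below WT. Of 20 measured targets, 19 lay within 1.5-fold of equal, near the 94.8% of all genes, and none was past 2-fold, with a median of 0.11. The exception to 1.5-fold was Cd83, an activation marker, at 0.77. Of the immediate early genes, 19 of 21 were within 1.5-fold, a share somewhat below that of all genes, with a median of -0.05. Fos had -0.07, Fosb 0.61 and Klf4, a Kruppel-like factor, 0.69. Of 18 T cell activation genes 17 were within 1.5-fold, again near the share of all genes, and Egr2, a factor induced by the T cell receptor, had -0.57 and Cd69, an early activation marker, 0.47.

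Cell division and metabolism gave small and coordinated values. Mki67, a marker of dividing cells, was at 33.3 FPKM in the library labelled IL6ra, 27.9 FPKM in MyD88 T-KO and 20.3 FPKM in WT, a ratio of 0.25 [0.20 to 0.29]. Of 23 mitosis genes 21 lay above 0, against 36.1% of all genes, with a median of 0.20, and of 23 DNA replication genes 18 did, with a median of 0.15. All of them were within 1.5-fold. Ribosomal protein genes lay below 0 in 46 of 46 cases with a median of -0.36, and so did 26 of 27 genes of oxidative phosphorylation (median -0.21), 18 of 18 of cholesterol synthesis (-0.30) and 13 of 15 of glycolysis (-0.22). None of these was past 2-fold. These counts stand beside 63.9% of all genes below 0 and a median of -0.18 over genes of 100 FPKM and above. Ribosomal protein genes have many pseudogene copies, which may take some of their fragments. Chaperones of the unfolded protein response (18 genes, median -0.11) and heat shock chaperones (13 genes, median -0.10) stood near the median of all genes.

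**Figure D5:**
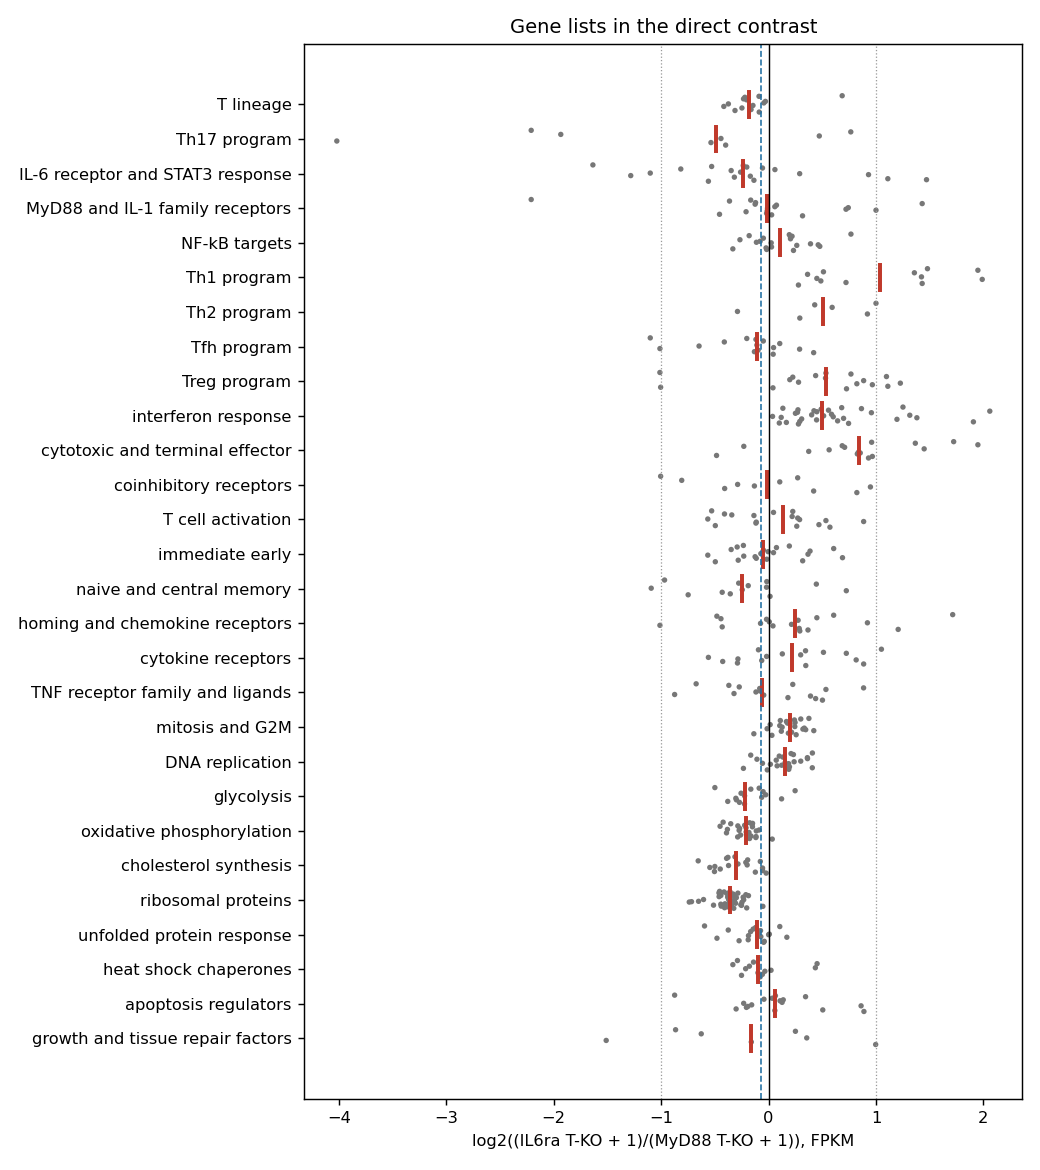
Log2 ratio of each measured gene (points) by gene list, with the median of the list as a red bar, the median of all 8052 genes as a dashed line and 2-fold as dotted lines. The Th1, cytotoxic, Treg and interferon lists lie to the right (higher in the library labelled IL6ra), the Th17 list to the left, and the NF-kB and immediate early lists near 0.

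The lowest ratio of all named genes was that of Gdpd3 (chromosome 7, 126766414 to 126775645), which encodes a lysophospholipase D. It was at 0.430 FPKM in the library labelled IL6ra, 59.9 FPKM in MyD88 T-KO and 11.6 FPKM in WT, a ratio of -5.41 [-5.65 to -5.11], so the 3 libraries all differed and MyD88 T-KO was above WT. None of the 111 measured genes within 10 Mb was past 2-fold, where the share of all genes would give 1.9, and their median was -0.04. Neighbouring Mapk3 was at 29.0 FPKM in the library labelled IL6ra, 29.3 FPKM in MyD88 T-KO and 29.2 FPKM in WT (chosen after its values were seen). At the other end stood Camk2b, a subunit of a calmodulin-dependent kinase, at 14.03 FPKM in the library labelled IL6ra, 1.57 FPKM in MyD88 T-KO and 10.1 FPKM in WT, a ratio of 2.55 [2.38 to 2.71]. Here MyD88 T-KO was the library apart, and the others were closer to each other.

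Several surface and secreted proteins completed the lower end. Stom, the membrane protein stomatin, was at 6.43 FPKM in the library labelled IL6ra, 26.9 FPKM in MyD88 T-KO and 37.9 FPKM in WT, a ratio of -1.91 [-2.05 to -1.77]. F2rl1, a protease-activated receptor, was at 6.65 FPKM in the library labelled IL6ra, 26.4 FPKM in MyD88 T-KO and 23.9 FPKM in WT, a ratio of -1.84. Tgfb3, a TGF-beta cytokine, was at 4.76 FPKM in the library labelled IL6ra, 15.4 FPKM in MyD88 T-KO and 15.5 FPKM in WT, a ratio of -1.51. For each of them MyD88 T-KO stood nearer to WT than the library labelled IL6ra did. The glycosyltransferase gene B4galnt4 (-1.72), the galanin receptor gene Galr3 (-1.47), the integrin gene Itga7 (-1.37) and Vwde (-2.12) lay on the same side. Hba-a2, Beta-s (globin genes) and Erdr1 were also among the 15 lowest. Hba-a2 and Hba-a1 occupy the same locus in the tables with ratios of -3.81 and 2.74, so their values are uncertain.

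At the upper end, Il17rb, the receptor for IL-25, was at 9.29 FPKM in the library labelled IL6ra, 1.90 FPKM in MyD88 T-KO and 1.78 FPKM in WT, a ratio of 1.83 [1.58 to 2.07]. Its neighbour Chdh, choline dehydrogenase, was at 11.6 FPKM in the library labelled IL6ra, 3.20 FPKM in MyD88 T-KO and 1.96 FPKM in WT, a ratio of 1.58, and the loci are 103 bases apart in the tables. Hrh4, the histamine H4 receptor, was at 6.23 FPKM in the library labelled IL6ra, 1.06 FPKM in MyD88 T-KO and 0.466 FPKM in WT, a ratio of 1.81. Nrn1, the membrane protein neuritin, was at 52.4 FPKM in the library labelled IL6ra, 17.0 FPKM in MyD88 T-KO and 14.9 FPKM in WT, a ratio of 1.57. In all 4 the library labelled IL6ra was the highest and MyD88 T-KO lay nearer to WT. Gpr25 (an orphan receptor) and Igfbp7 (a secreted binding protein) had 1.49 each.

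Genes past 2-fold were spread over the genome, with the highest share, apart from the 3 genes of chromosome Y, on chromosome 11, where 13 of 699 genes were higher and 10 lower (3.29%, against 1.7% of all genes). Some stood beside each other. Il22 and Iltifb, Ccl5, Ccl3 and Ccl4, and the Ifitm genes each formed a run in 1 direction, and B4galnt4, a lower gene, stood next to the higher Ifitm genes on chromosome 7.

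In the authors' deposited tables, which compare each knockout library with the WT library, 27 of the 80 higher genes had a q-value under 0.05 in the IL6ra T-KO table and 4 in the MyD88 T-KO table. For the 57 lower genes these counts were 27 and 6. Over all 8052 genes they were 78 (0.969%) and 82 (1.02%). The genes were chosen on the same FPKM values that those tests used, so nothing is read from these counts. These tests compare 1 library with 1 library, and both tables share the WT library.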

How the data were processed

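RNA of 3 pooled libraries, 1 per group, was compared. The authors deposited expression as FPKM, with their own p-values and q-values, in 2 tables of a knockout against WT, each in 4 sheets, per the file headers. Per the submitters' processing notes the tools were TopHat and Cufflinks and the build was mm10. No version or setting is given in the sources used here.

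The tables were joined on their gene entries. The IL6ra T-KO values were multiplied by 0.976, the median over 12993 genes (WT above 0.05 FPKM) of the ratio of the WT values of the tables, whose 1st and 99th percentiles were 0.976 and 0.977. The log2 ratio was computed with 1 FPKM added, which understates differences at low FPKM. A gene was counted at a ratio of at least 1 in size, given at least 5 FPKM in either knockout. No test was possible between single libraries. Low FPKM of genes with a single transcript fall on steps of 1 fragment, which gave the depth. From it an exact binomial (Clopper-Pearson) interval of 95% was made for each ratio, and tested on simulated data. It depends on the transcript length chosen and covers counting error only. Starts in the tables were written with 1 added.

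Named genes are Myd88, Il6ra, a list of key genes, the 15 highest and 15 lowest ratios among genes tested by the authors in both tables (without receptor segments, small RNAs, predicted genes and entries with several symbols), and up to 4 genes of each of 38 lists per direction. Outside this rule, Cd3e, Jak1, Stat4, Irak2, Il1r2, Ccl3, Ccl4, Eomes, Gbp7, Ifit2, Ifit3, Isg15, Irgm1, Lars2, Mapk3, Ncr1 and Sox13 were chosen after their values were seen. The members, lists and rules were chosen with earlier results of these data known. Promoters came from RefSeq (GRCm38.p6), from 250 bases before to 50 after each gene's start. Other pseudocounts, scalings, filters and folds were tried as alternatives. Python 3.11.15, numpy 2.4.6, pandas 2.3.3 and scipy 1.17.1 were used.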

Additional observations from a re-analysis of the deposited data

How the results depend on the processing

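No paired analysis was possible because each group is 1 library. With a pseudocount of 5 FPKM, 29 genes were higher and 28 lower, against 80 and 57 with 1 FPKM. With a minimum of 10 FPKM, 52 were higher. At 1.5-fold there were 238 higher and 184 lower, and at 4-fold 10 and 12. With the counting interval wholly past 2-fold, an alternative chosen after seeing the data, there were 49 and 35, small RNAs included. Centring the median ratio on 0 gave 94 higher and 46 lower, and no scale factor 86 and 51. Leaving out markers of other cells and sex-linked genes, also chosen after seeing the data, gave 76 and 54. Of the 54 named genes past 2-fold, 28 stayed past it with a pseudocount of 5 FPKM, 54 with 0.1 FPKM and 51 with either other scaling. At most 4 of the 38 list medians changed sign under a setting, and those with a size above 0.404 kept their sign under every setting run. Depth limits low genes most, such as Il17f.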
